A study of Mus musculus with 17 samples.

Results

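New RNA of 46 cell cycle and DNA replication genes was followed in mouse embryonic stem cells. RAF was switched on with and without an inhibitor of MEK or ERK2. The genes were taken by symbol, 46 of the 25899 rows of the count table. The rule names symbols and no measured value, but the members were chosen with earlier results of these data known. They were split into 30 G1/S genes and 16 G2/M genes. The split is coarse, since some products act in several phases. Gmnn, an inhibitor of licensing, was placed with the licensing genes in G1/S. All 46 symbols were in the table, and 44 (28 G1/S and 16 G2/M) could be tested. Cdt1, a replication licensing factor, and Tk1, a thymidine kinase of the nucleotide salvage pathway, had 0 counts in every one of the 17 libraries. Both overlap other gene models of the same table (Gm20388 for Cdt1, Gm20708 and Afmid for Tk1), and the part of these overlaps in the zeros was not tested.

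The cells were of the E14tg2a line, an embryonic stem cell line of 129SV background. Their own Erk1 and Erk2 were knocked out, and a cDNA supplied FLAG-ERK2 Q103A instead, an analog-sensitive kinase that PP1 compounds can block. They also carried a cRAF-ErT2 cassette, through which 4-hydroxytamoxifen (4OHT) turns on RAF and so MEK and ERK. The 6 treatment groups were PP1 at 2 µM with 250 nM 4OHT for 2 h, the MEK inhibitor (MEKi) at 1 µM with 4OHT, 4OHT alone, PP1 alone, MEKi alone, and DMSO, the untreated state at 0 h. Each group had 3 libraries, from clones a, b and c, except DMSO with 2, from clones b and c. All groups shared the knockout, the ERK2 Q103A cDNA and the RAF cassette. All had been grown with LIF and 2 µM CHIR99021, a GSK3 inhibitor, and were then kept for the 24 h before in serum medium with LIF in which PD173074, at 250 nM, blocked FGF receptors. RNA made during the last 15 minutes was labelled with 5 mM ethynyl uridine, captured and sequenced. How long the inhibitors acted when given alone is not clear from the labels. All groups without 4OHT were labelled 0 h and all groups with it 2 h. Effects of 4OHT, of time and of the length of inhibitor exposure therefore cannot be told apart. A 4OHT effect below means the 2 h group against its 0 h group. The clones derive from 1 line, and no clone has more than 1 library in a group. The p-values therefore measure the spread between libraries of different clones and say nothing of other lines.

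D cyclins bind CDK4 and CDK6, and the resulting kinases phosphorylate RB family proteins in G1, which frees E2F factors to switch on genes for DNA replication. The licensing factors and the MCM helicase and then cyclin E with CDK2 carry cells into S phase. Mitotic genes follow later through cyclin A and cyclin B with CDK1, Polo and Aurora kinases and the spindle checkpoint, and many of them are read from promoters with a CHR element and CCAAT boxes. In many cell types ERK signalling raises Ccnd1 transcription. Mouse embryonic stem cells differ from most somatic cells in a short G1 and in low levels of D cyclins.

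Promoters of 5 genes are shown, since they hold matches to E2F, CHR and CCAAT motifs and belong to genes whose new RNA changed. Each is the 250 bases before the RefSeq start of the gene (GRCm38.p6), read 5′ to 3′ along the gene's strand. Capitals mark matches on either strand to E2F motifs (TTTCCCGC, TTTGGCGC, TTTCGCGC or TTTGCCGC), to the CHR motif TTTGAA and to CCAAT. The windows are chr11:99024190-99024439 (minus strand) for Top2a, chr4:118437344-118437593 (minus strand) for Cdc20, chr10:69352913-69353162 (minus strand) for Cdk1, chr9:109875329-109875578 (plus strand) for Cdc25a and chr13:29986064-29986313 (minus strand) for E2f3. The first 3 are G2/M genes and the last 2 are G1/S genes.
Top2a: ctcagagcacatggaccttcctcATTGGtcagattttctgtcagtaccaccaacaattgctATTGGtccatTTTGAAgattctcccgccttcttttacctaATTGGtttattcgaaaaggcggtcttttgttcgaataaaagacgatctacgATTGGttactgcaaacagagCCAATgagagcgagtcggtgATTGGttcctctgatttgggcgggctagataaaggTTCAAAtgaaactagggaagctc
Cdc20: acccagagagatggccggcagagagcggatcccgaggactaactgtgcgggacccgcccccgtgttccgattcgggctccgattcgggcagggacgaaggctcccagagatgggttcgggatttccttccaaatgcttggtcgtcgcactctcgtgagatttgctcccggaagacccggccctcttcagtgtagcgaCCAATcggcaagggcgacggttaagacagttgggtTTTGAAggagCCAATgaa
Cdk1: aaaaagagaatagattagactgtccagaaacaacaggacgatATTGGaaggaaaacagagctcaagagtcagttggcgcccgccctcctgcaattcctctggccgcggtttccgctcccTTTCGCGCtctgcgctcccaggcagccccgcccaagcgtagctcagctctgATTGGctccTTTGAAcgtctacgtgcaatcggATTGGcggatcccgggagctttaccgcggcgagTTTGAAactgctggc
Cdc25a: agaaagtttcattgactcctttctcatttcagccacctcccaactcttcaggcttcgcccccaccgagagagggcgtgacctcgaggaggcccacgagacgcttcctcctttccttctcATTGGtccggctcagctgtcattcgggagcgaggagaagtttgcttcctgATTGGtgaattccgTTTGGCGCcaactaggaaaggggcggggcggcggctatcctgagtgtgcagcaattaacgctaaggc
E2f3: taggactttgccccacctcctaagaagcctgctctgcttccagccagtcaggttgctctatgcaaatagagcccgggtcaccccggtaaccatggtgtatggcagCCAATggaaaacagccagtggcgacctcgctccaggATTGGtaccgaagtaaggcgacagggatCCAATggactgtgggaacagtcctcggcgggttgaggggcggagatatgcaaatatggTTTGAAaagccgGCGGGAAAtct

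Of these 5 windows, Top2a held 2 CHR matches and 6 CCAAT matches, and Cdk1 held 1 E2F, 2 CHR and 3 CCAAT matches. No match to 1 motif shared a base with a match to another in them. Over the 36 members with a window in the RefSeq table, searched from 250 bases before to 50 bases after the start, 11 of 24 G1/S genes and 1 of 12 G2/M genes (Cdk1) held an E2F match. The share over all 27025 genes was 2.6%. CHR matches were in 4 of 24 G1/S genes and 9 of 12 G2/M genes, against 20.2% of all genes, and CCAAT was in 16 of 24 and 12 of 12, against 41.1%. ETS and AP-1 factors can respond to ERK. The ETS motif CCGGAAG was in 2 of 24 G1/S genes (Ccnd3 and Orc1) and 3 of 12 G2/M genes (Aurka, Cdc20 and Mki67), against 9.93% of all genes. The AP-1 motifs TGACTCA and TGAGTCA were in 0 of 24 and 0 of 12, against 5.95%. The other 10 members had no window and were not searched: Ccnd1, Ccnd2, Ccne2, Gmnn, Mcm4, Rb1, Aurkb, Ccna2, Cdc25c and Wee1. A match is a string of letters only and shows no binding.

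Libraries held between 5239690 and 11093390 counts. Levels are given as CPM, the count relative to the library's total after TMM scaling, which sets libraries level on the bulk of their genes. A group of 14 loci had mean counts of at least 1000 and shares that correlated with that of Cdk8 over libraries (r at least 0.95). None of them was a member, and together they took between 9.38% and 42.0% of a library's counts, the most in PP1 clone a. The next highest shares were 32.6% in MEKi clone b and 28.9% in 4OHT clone b. In each of these 3 libraries Cdk4, Plk1, Cdc20, Mki67 and Top2a stood above the other clones of their group. Mki67 was at 130.1, 184 and 155 CPM in 4OHT clones a, b and c, 155, 94.7 and 93.7 CPM in PP1 clones and 86.3, 133 and 90.7 CPM in MEKi clones, against 96.2 and 90.5 CPM with DMSO. The part of the locus share in those levels was not tested. The 4OHT group, in which Plk1, Cdc20, Mki67 and Top2a were called higher, thus holds 1 of these libraries. All 10 embryonic stem cell markers were expressed (summed level 2927 to 3938 CPM), and 0 of 7 fibroblast markers reached a mean of 1 CPM. That mean was reached by 4 of 6 primitive endoderm, 3 of 6 trophoblast, 1 of 5 mesoderm and 3 of 5 neuroectoderm markers. Their summed levels were 6.51 to 19.9, 15.0 to 52.1, 2.55 to 8.16 and 9.61 to 35.3 CPM in that order. Counts on Mapk3 (Erk1) were 7.6 to 17.9 CPM. Whether the counted reads lie in the deleted part is not known from the labels, so this level checks nothing about the knockout. Members whose span overlaps another gene of the table may share reads with it, and besides those named beside their values they are Cdk4, Ccne2, Cdk2, Mcm7, Cdc45, Rrm1, Ccna2, Cdc25b, Cdc25c and Mki67.

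Genes of ERK output moved with the treatments. Dusp6, a phosphatase that ERK induces and that acts back on ERK, stood at 153, 149 and 162 CPM with PP1 and 4OHT and at 50.3, 49.1 and 47.7 CPM with PP1, at 5.51, 5.89 and 5.2 CPM with MEKi and 4OHT and at 22, 31.1 and 20.4 CPM with MEKi, and at 274, 265 and 293 CPM with 4OHT and at 70.6 and 83.4 CPM with DMSO. It therefore fell with 4OHT under MEKi and rose under PP1, and no 2 of the 6 groups overlapped. Fosl1, an AP-1 subunit that accumulates with sustained ERK activity, had a log2 fold change with 4OHT of 1.18 ± 0.20 under PP1, -0.01 ± 0.22 under MEKi and 3.97 ± 0.19 without inhibitor, the adjusted p under MEKi being 0.984. Spry2, a further gene of ERK output, rose under PP1 (0.71 ± 0.08) and without inhibitor (0.45 ± 0.09) and fell under MEKi (-1.29 ± 0.10). All these genes were thus higher with 4OHT under PP1. The 4OHT effect with PP1 minus that without inhibitor was -0.19 ± 0.15 for Dusp6 (adjusted p = 0.375) and 0.27 ± 0.12 for Spry2 (0.106), neither called. For Fosl1 it was -2.78 ± 0.28 (1.02e-07). The part of any remaining ERK activity in these levels with PP1 and 4OHT was not tested.

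**Figure D1:**
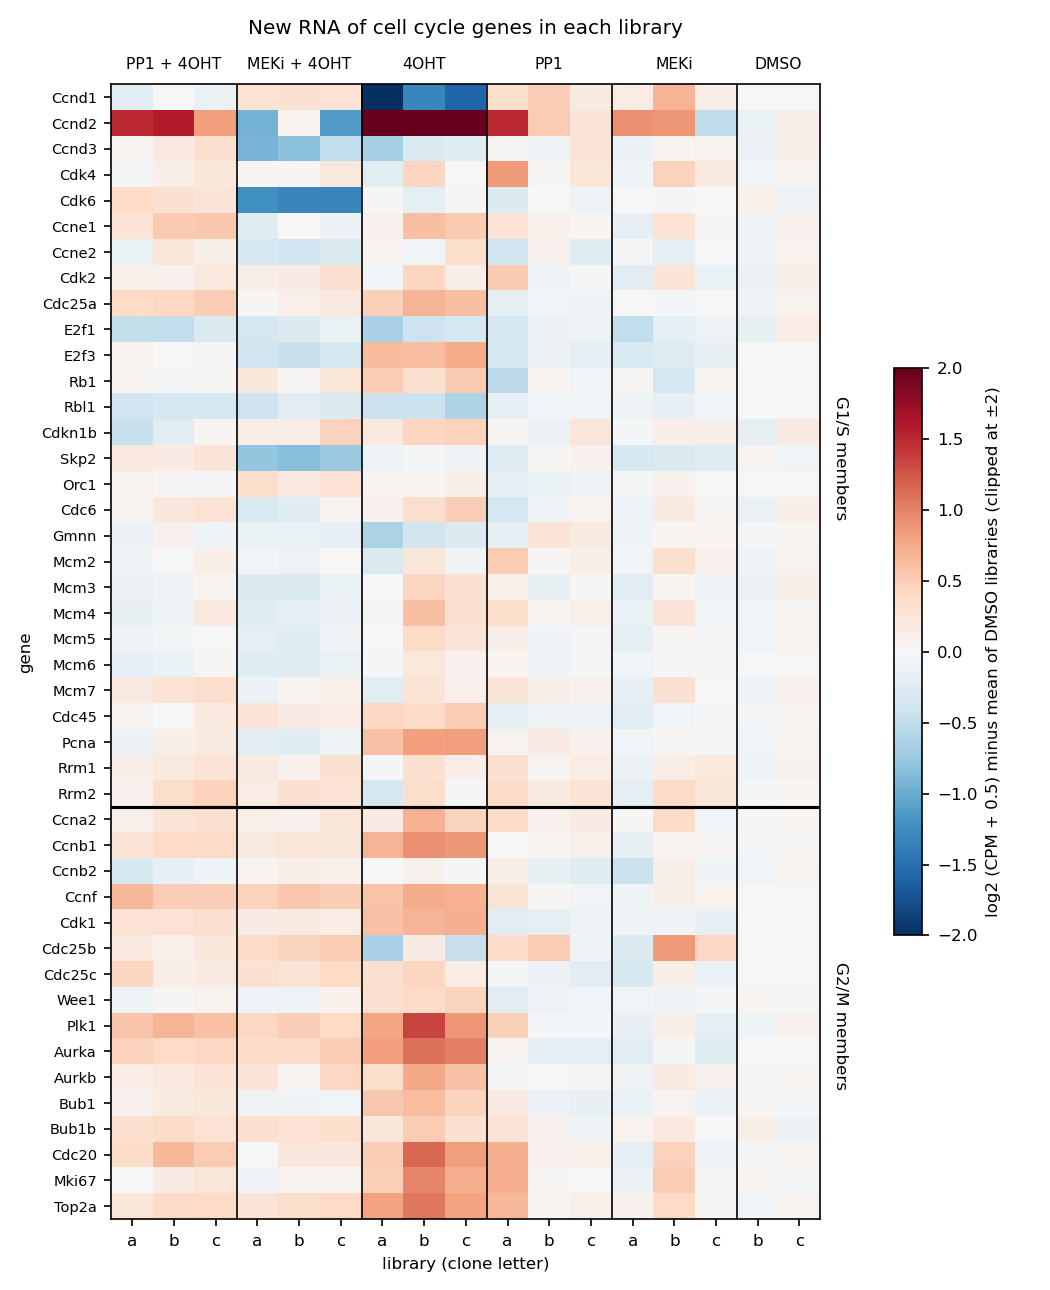
New RNA of the 44 tested members (rows, G1/S above the thick line and G2/M below it) in each of the 17 libraries (columns, grouped by treatment, clone letter below). Colour is log2 (CPM + 0.5) minus the mean of the 2 DMSO libraries, clipped at 2 either way. Most G2/M rows are red in the 3 4OHT libraries, Ccnd1 is blue and Ccnd2 red there, and Cdk6 and Skp2 are blue in the 3 MEKi with 4OHT libraries.

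RAF activation without an inhibitor was compared with DMSO in 1 edgeR quasi-likelihood fit of all 17 libraries, and calls needed a p under 0.05 after Benjamini-Hochberg adjustment over 14907 genes. Of the 28 G1/S genes tested 8 rose and 5 fell, and of the 16 G2/M genes 13 rose and 0 fell. In this comparison 52.0% of all genes were called, 25.7% higher and 26.3% lower, so that the G1/S share of 13 in 28 lies near the background. The 13 of 16 G2/M genes that rose are to be read against the 25.7% of all genes that did. By library, the median G2/M level relative to DMSO was 0.257, 0.274 and 0.306 (log2) with PP1 and 4OHT, 0.215, 0.230 and 0.302 with MEKi and 4OHT, and 0.488, 0.715 and 0.639 with 4OHT alone. The 4OHT libraries thus lay above all others, and PP1 clone a, at 0.220, lay apart from the other PP1 clones (0.00939 and -0.0543), as did MEKi clone b, at 0.135, from the other MEKi clones (-0.123 and -0.0494). Without 4OHT clone b, 6 G1/S genes rose and 5 fell, and 11 G2/M genes rose and 0 fell. The median log2 fold change was 0.14 over the G1/S genes and 0.62 over the G2/M genes, against -0.02 over all genes tested. Every called member moved the same way in both clones that have a DMSO library. Since a library pools cells of all phases, more cells in a phase and more new RNA per cell cannot be told apart.

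That count depends on how libraries are set level. Scaled by library totals alone, all genes together had a median of -0.317 (log2). The split of called members was 2 up and 6 down for G1/S and 6 up and 1 down for G2/M. Of all 14907 genes 1293 were then called higher and 4823 lower. With totals counted outside the 14 loci the split was 4 up and 8 down, and 9 up and 0 down. There 2275 of 15003 genes were called higher and 5696 lower. The member counts are to be read against these. Changes below are relative to the bulk of genes. The call for 9 members held with every library left out in turn and under every other setting: Ccnd1, Ccnd2, Pcna, Rbl1 and Gmnn in G1/S, and Plk1, Aurka, Top2a and Ccnb1 in G2/M.

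The 2 largest changes were among the D cyclins, and they went opposite ways. Ccnd1 (cyclin D1, chr7:144929931-144939925 in mm10) stood at 9.53, 16.2 and 13.1 CPM with 4OHT, against 40.6 and 40.7 CPM with DMSO. All 3 4OHT libraries lay far below both DMSO libraries, with a log2 fold change of -1.69 ± 0.17 (adjusted p = 3.17e-08), or 3.22-fold lower. Ccnd2 (cyclin D2, chr6:127125162-127152193) stood at 29.4, 30.7 and 18.5 CPM with 4OHT, against 3.04 and 3.8 CPM with DMSO. Again the groups did not overlap, and Ccnd2 rose with a log2 fold change of 2.93 ± 0.47 (adjusted p = 9.98e-05). It had 1292 counts over all libraries, and its SE was the widest of the members in this comparison. Ccnd3 (cyclin D3, chr17:47505051-47599691) stood at 50.2, 65.3 and 67.6 CPM with 4OHT, against 73.4 and 86.6 CPM with DMSO. The groups did not overlap and the call was marginal, with a log2 fold change of -0.39 ± 0.14 (adjusted p = 0.0199), and it was lost without 4OHT clone a (adjusted p = 0.143) or DMSO clone c (adjusted p = 0.298). Ccnd3 overlaps Bysl, and without a known strand setting their reads cannot be told apart.

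Their partner kinases were not called. Cdk6 had a log2 fold change of -0.05 ± 0.09 (adjusted p = 0.65) and Cdk4 one of 0.09 ± 0.23 (adjusted p = 0.769). Cdkn1b, which encodes the CDK inhibitor p27, stood at 39.5, 46.5 and 47.5 CPM with 4OHT, against 30.4 and 38.7 CPM with DMSO. The lowest 4OHT library lay just above the higher DMSO library, and the rise of 0.36 ± 0.15 (adjusted p = 0.0438) was lost without 4OHT clone b (adjusted p = 0.0931), 4OHT clone c (0.0958) or DMSO clone b (0.339). Skp2, the F-box protein that marks p27 for degradation, had -0.06 ± 0.09 (adjusted p = 0.578) and was not called.

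**Figure D2:**
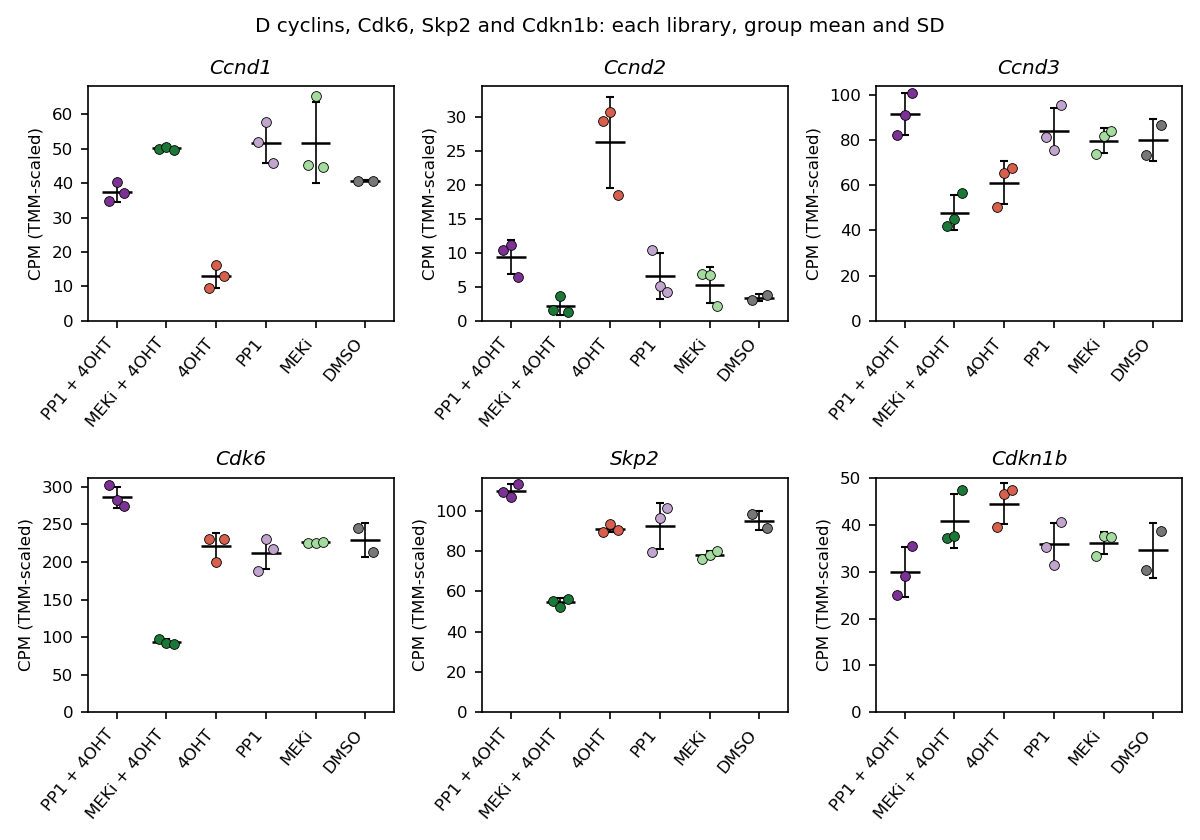
CPM after TMM scaling (vertical axis from 0) of the 3 D cyclins, Cdk6, Skp2 and Cdkn1b in each library (points), with the group mean (line) and SD (bar), for the 6 treatment groups. Ccnd1 is lowest and Ccnd2 highest with 4OHT alone, while Cdk6 and Skp2 are lowest with MEKi and 4OHT.

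The E2F and RB members split. E2f3, an activating E2F, rose to 399, 395 and 429.5 CPM with 4OHT, against 260.2 and 255 CPM with DMSO. Its 3 4OHT libraries stood close together and well above DMSO (0.66 ± 0.07, adjusted p = 8.24e-08). E2f1, also an activating E2F, stood at 38.7, 45.5 and 47.8 CPM with 4OHT, against 54.5 and 67.5 CPM with DMSO. It fell, with -0.47 ± 0.13 (adjusted p = 0.00273), a call lost without DMSO clone c (adjusted p = 0.143). Rbl1 (p107) fell to 51.1, 51 and 44.8 CPM with 4OHT, against 68.8 and 68.8 CPM with DMSO. Rb1 rose to 107, 94.8 and 109 CPM with 4OHT, against 76 and 74.9 CPM with DMSO. These pocket proteins, which hold E2F in check, thus moved apart without overlap of the groups, by -0.49 ± 0.09 (adjusted p = 5.90e-05) for Rbl1 and 0.46 ± 0.13 (adjusted p = 0.00373) for Rb1. Rb1 shares its span with Rcbtb2 and Lpar6.

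Of the genes that start S phase, few changed. Pcna, the sliding clamp of DNA polymerases, rose to 207, 242 and 245 CPM with 4OHT, against 132 and 142 CPM with DMSO. Cdc25a, a phosphatase that activates CDK2 and CDK1, rose to 130.2, 151 and 142 CPM with 4OHT, against 89.4 and 97.6 CPM with DMSO. Neither gene's groups overlapped, and the log2 fold changes were 0.75 ± 0.09 (adjusted p = 2.22e-07) and 0.59 ± 0.08 (adjusted p = 2.29e-06). Cdc45, a part of the replicative helicase, also rose, with 0.44 ± 0.09 (adjusted p = 1.48e-04), and Gmnn (geminin), the inhibitor of licensing, fell with -0.43 ± 0.11 (adjusted p = 0.00227). Ccne1 (cyclin E1) rose by 0.41 ± 0.14 (adjusted p = 0.0173), but lost its call without 4OHT clone b (adjusted p = 0.0824), 4OHT clone c (0.0641) or DMSO clone b (0.15). None of the 6 MCM genes was called: their log2 fold changes ran between -0.04 for Mcm2 and 0.32 for Mcm4, and 3 of them had an unadjusted p under 0.05. With clone as a block Mcm3 (adjusted p = 0.0174), Mcm5 (0.0236) and the licensing factor Cdc6 (0.000733) were called too. Ccne2, Cdk2, Orc1, Rrm1 and Rrm2 were not called and lay within 0.01 for Rrm2 and 0.17 for Cdk2.

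Of the 16 G2/M genes, 13 rose. Plk1, the Polo kinase of mitotic entry, stood at 56.3, 84.1 and 60.2 CPM with 4OHT, against 30.4 and 34.7 CPM with DMSO. Aurka, the Aurora kinase of the spindle poles, stood at 147, 179 and 167 CPM with 4OHT, against 82.9 and 83.2 CPM with DMSO. Clone b was highest of the 4OHT libraries for both genes, and neither gene's groups overlapped. The log2 fold changes were 1.03 ± 0.16 (adjusted p = 9.11e-06) and 0.98 ± 0.09 (adjusted p = 6.45e-09), and Plk1 overlaps Gm44985. Top2a, the topoisomerase that untangles chromosomes, stood at 523, 627 and 527 CPM with 4OHT, against 289.9 and 311 CPM with DMSO. Cdc20, an activator of the anaphase-promoting complex, stood at 59.4, 93.4 and 75 CPM with 4OHT, against 40.9 and 43 CPM with DMSO. Both rose without overlap, by 0.90 ± 0.16 (adjusted p = 1.73e-04) for Top2a and 0.85 ± 0.22 (adjusted p = 0.00432) for Cdc20, whose call was lost without DMSO clone b (adjusted p = 0.0519). Cdc20 overlaps Elovl1.

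Among the cyclins and their kinase, Ccnb1 (cyclin B1) rose by 0.82 ± 0.08 (adjusted p = 9.22e-09) and Cdk1, its partner, by 0.67 ± 0.07 (adjusted p = 1.97e-08). Ccnf (cyclin F, a part of an SCF ubiquitin ligase) rose by 0.67 ± 0.09 (adjusted p = 8.01e-07). Ccnb2 (cyclin B2), in contrast, was at 47.5, 50.7 and 46.4 CPM with 4OHT, against 45.8 and 49.8 CPM with DMSO, and was not called (0.01 ± 0.12, adjusted p = 0.959). Aurkb, the Aurora kinase of the chromosomal passenger complex, Bub1 of the spindle checkpoint and Wee1, the kinase that restrains CDK1, rose by 0.57 ± 0.12, 0.53 ± 0.09 and 0.38 ± 0.08, with adjusted p of 4.00e-04, 2.17e-05 and 4.70e-04. The phosphatases that oppose Wee1 were not called, Cdc25b at -0.33 ± 0.27 (adjusted p = 0.32) and Cdc25c at 0.31 ± 0.13 (adjusted p = 0.055).

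The 3 remaining rises hung on single libraries. Ccna2 (cyclin A2, 0.44 ± 0.14) lost its call without 4OHT clone b (adjusted p = 0.0639) or DMSO clone b (0.0859). Mki67, which encodes the proliferation marker Ki-67 (0.74 ± 0.23), lost it without 4OHT clone b (0.0587), DMSO clone b (0.0734) or DMSO clone c (0.0946). Bub1b, which encodes the checkpoint kinase BUBR1 (0.34 ± 0.10), lost it without DMSO clone c (0.0826). With library totals only, the calls for Cdk1, Ccnf, Aurkb, Bub1, Bub1b, Ccna2 and Wee1 were lost, with adjusted p between 0.0548 and 0.878, and so were those of E2f3, Rb1, Cdc45, Cdkn1b, Ccne1 and Cdc25a.

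**Figure D3:**
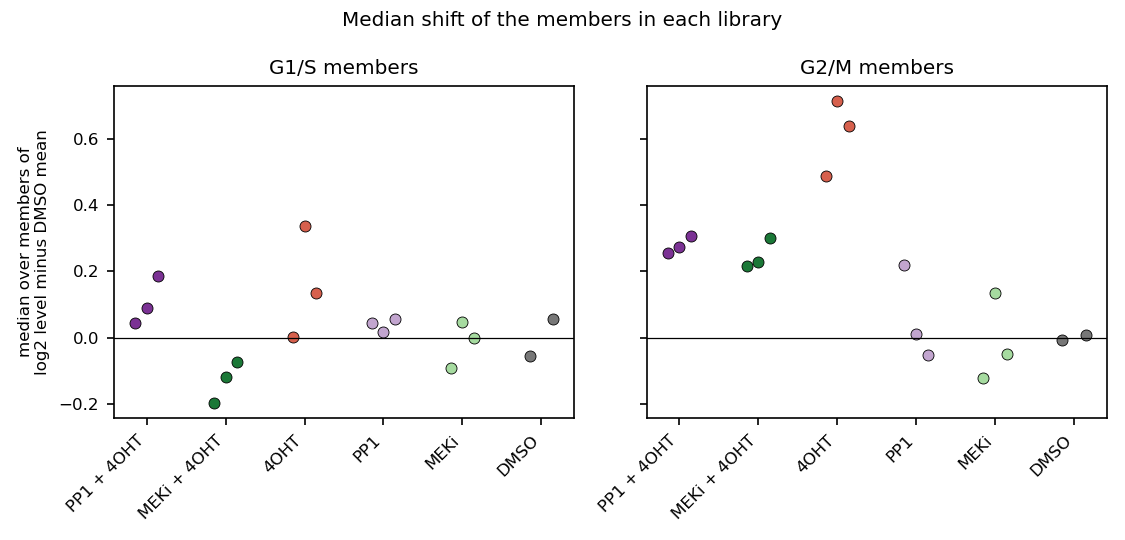
Median over the 28 tested G1/S members (left) and the 16 G2/M members (right) of log2 level minus the mean of the DMSO libraries, 1 point per library, by treatment group. The 3 4OHT libraries lie highest for G2/M (0.488 to 0.715), and the MEKi with 4OHT libraries lie below 0 for G1/S (-0.198 to -0.0737), as do some others (MEKi clone a at -0.0914).

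With MEKi, some mitotic genes were still higher with 4OHT, and Cdk6 was now lower. Effects of 4OHT and of time with MEKi cannot be told apart here. In MEKi with 4OHT against MEKi 2 G1/S genes rose and 3 fell, and 6 G2/M genes rose and 0 fell, while 14.7% of all genes were called (7.65% higher, 7.03% lower). The median log2 fold change was -0.15 over G1/S and 0.20 over G2/M genes, against 0.0044 over all. Cdk6 (chr5:3341485-3531008) stood at 97.7, 91.8 and 91.5 CPM with MEKi and 4OHT, against 226, 225 and 227 CPM with MEKi. The groups lay far apart, and Cdk6 fell with a log2 fold change of -1.27 ± 0.08 (adjusted p = 1.21e-10), or 2.41-fold lower. Ccnd3 fell to 41.8, 45.1 and 56.4 CPM with MEKi and 4OHT, against 73.6, 81.6 and 83.8 CPM with MEKi. Skp2 fell to 55.2, 52.3 and 56.4 CPM with MEKi and 4OHT, against 76.2, 77.9 and 79.9 CPM with MEKi. Neither gene's groups overlapped, with -0.74 ± 0.13 (adjusted p = 3.47e-04) for Ccnd3 and -0.51 ± 0.08 (adjusted p = 1.10e-04) for Skp2, which overlaps Lmbrd2.

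Ccnd1 was not called there, at 49.96, 50.6 and 49.7 CPM with MEKi and 4OHT, against 45.2, 65.4 and 44.7 CPM with MEKi (-0.04 ± 0.14, adjusted p = 0.904). Ccnd2 stood at 1.52, 3.59 and 1.27 CPM with MEKi and 4OHT, against 6.81, 6.71 and 2.23 CPM with MEKi. The groups overlapped and it was not called (-1.24 ± 0.51, adjusted p = 0.127), but with clone as a block its adjusted p was 0.0194. Cdkn1b was at 37.2, 37.5 and 47.3 CPM with MEKi and 4OHT, against 33.3, 37.6 and 37.4 CPM with MEKi, and was not called (0.17 ± 0.13, adjusted p = 0.429). Orc1, a subunit of the origin recognition complex, rose by 0.26 ± 0.06 (adjusted p = 0.00827), a call lost without MEKi with 4OHT clone a (adjusted p = 0.0556).

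The G2/M genes that rose under MEKi were Aurka (0.57 ± 0.08, adjusted p = 4.77e-05), Ccnf (0.47 ± 0.08, adjusted p = 2.08e-04), Cdk1 (0.27 ± 0.06, adjusted p = 0.00348), Plk1 (0.53 ± 0.14, adjusted p = 0.0154), Cdc25c (0.44 ± 0.12, adjusted p = 0.0154) and Ccnb1 (0.24 ± 0.07, adjusted p = 0.0274). Aurka stood at 107, 107 and 117 CPM with MEKi and 4OHT, against 71.4, 81.3 and 70.4 CPM with MEKi, and Ccnf at 229.8, 243 and 234 CPM against 158, 180.2 and 174 CPM. Both held in every library left out and under every other setting, as did the falls of Cdk6 and Ccnd3. The call of Plk1 was lost without any 1 of 5 libraries, with adjusted p up to 0.116 without MEKi clone c, and that of Ccnb1 without any 1 of 4, with adjusted p up to 0.158 without MEKi clone a. Cdc25c lost its call without MEKi with 4OHT clone c (0.0744), MEKi clone a (0.104) or MEKi clone c (0.0732), and Cdc45 (0.29 ± 0.08) without MEKi with 4OHT clone a (0.0663) or MEKi clone a (0.0907). Without MEKi clone a the count fell to 1 up and 3 down for G1/S and 3 up and 0 down for G2/M. Library totals only moved the all-gene median to 0.17, with 937 of 14907 genes called higher and 193 lower. The member count was then 0 up and 2 down for G1/S and 4 up and 0 down for G2/M. Skp2 (adjusted p = 0.212) and Cdk1 (0.0693) were among the calls lost.

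With PP1, 4OHT raised 5 G1/S genes and lowered 2, and raised 7 G2/M genes and lowered 0, while 31.3% of all genes were called (18.4% higher, 12.8% lower). The medians were 0.03 over G1/S and 0.22 over G2/M genes, against 0.00112 over all. Cdk6 moved the other way from MEKi: it stood at 302, 282 and 274 CPM with PP1 and 4OHT, against 189, 230.2 and 217 CPM with PP1. The groups did not overlap (0.43 ± 0.08, adjusted p = 2.38e-04). Ccnd1 fell to 34.8, 40.4 and 37.2 CPM with PP1 and 4OHT, against 51.8, 57.6 and 45.9 CPM with PP1. The fall was smaller than without inhibitor, -0.47 ± 0.14 (adjusted p = 0.0148), and its call was lost without PP1 with 4OHT clone a (adjusted p = 0.0542) or PP1 clone b (0.0955). Ccnd2 at 10.4, 11.2 and 6.49 CPM with PP1 and 4OHT, against 10.5, 5.08 and 4.17 CPM with PP1, overlapped and was not called (0.66 ± 0.43, adjusted p = 0.263). Ccnd3 (0.12 ± 0.12, adjusted p = 0.501) and Cdkn1b (-0.27 ± 0.14, adjusted p = 0.149) were not called either, Cdkn1b standing at 24.9, 29.1 and 35.5 CPM with PP1 and 4OHT, against 35.2, 31.5 and 40.7 CPM with PP1.

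Cdc25a rose under PP1 to 123, 125 and 133 CPM with 4OHT, against 81.4, 90.4 and 88.5 CPM with PP1 alone. All 3 libraries with 4OHT lay above the others, with 0.55 ± 0.08 (adjusted p = 1.01e-05), close in size to the 0.59 without inhibitor. Rbl1 fell (-0.28 ± 0.08, adjusted p = 0.0103) and E2f3 rose (0.23 ± 0.07, adjusted p = 0.0106), E2f3 losing its call without PP1 with 4OHT clone a (0.0653) or PP1 clone a (0.0625). The rise of Skp2 (0.24 ± 0.08) was lost without any 1 of 4 libraries, with an adjusted p of 0.146 without PP1 clone a, and that of Cdc45 (0.21 ± 0.08) without any 1 of the 6.

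The 7 G2/M genes raised under PP1 were Aurka, Cdk1, Ccnf, Ccnb1, Plk1, Cdc25c and Bub1b. Aurka stood at 115, 110.1 and 111 CPM with PP1 and 4OHT, against 85.5, 72.3 and 72.5 CPM with PP1, and Cdk1 at 203, 204 and 207 CPM against 142, 146 and 154 CPM. For both, every library with 4OHT lay above every library without it. Aurka rose by 0.56 ± 0.09 (adjusted p = 3.65e-05), Cdk1 by 0.47 ± 0.06 (adjusted p = 4.71e-06), Ccnf by 0.47 ± 0.08 (adjusted p = 9.62e-05) and Ccnb1 by 0.31 ± 0.07 (adjusted p = 0.00236), all held in every library left out. Plk1 (0.50 ± 0.14), Cdc25c (0.39 ± 0.12) and Bub1b (0.25 ± 0.09) lost the call without any 1 of 4, 3 and 5 libraries in that order, with adjusted p up to 0.0903, 0.176 and 0.216. DESeq2 did not call Bub1b (adjusted p = 0.0774) or Cdc45 (0.0862). Top2a (0.06 ± 0.14, adjusted p = 0.79), Cdc20 (0.22 ± 0.20, adjusted p = 0.416) and Mki67 (-0.13 ± 0.20, adjusted p = 0.664) were not called. Top2a stood at 357, 390.1 and 398 CPM with PP1 and 4OHT, against 476, 309 and 322 CPM with PP1, and Cdc20 at 54.4, 66.1 and 59.7 CPM against 68.9, 44.5 and 45 CPM. The first PP1 value of each, clone a, lay far above the other PP1 values and the groups overlapped. Without PP1 with 4OHT clone a the count was 2 up and 1 down for G1/S and 4 up and 0 down for G2/M. Without PP1 clone a it was 2 up and 4 down, and 9 up and 0 down. With library totals only (all-gene median 0.121) it was 3 up and 0 down and 7 up and 0 down. Of all 14907 genes 2043 were then called higher and 625 lower.

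**Figure D4:**
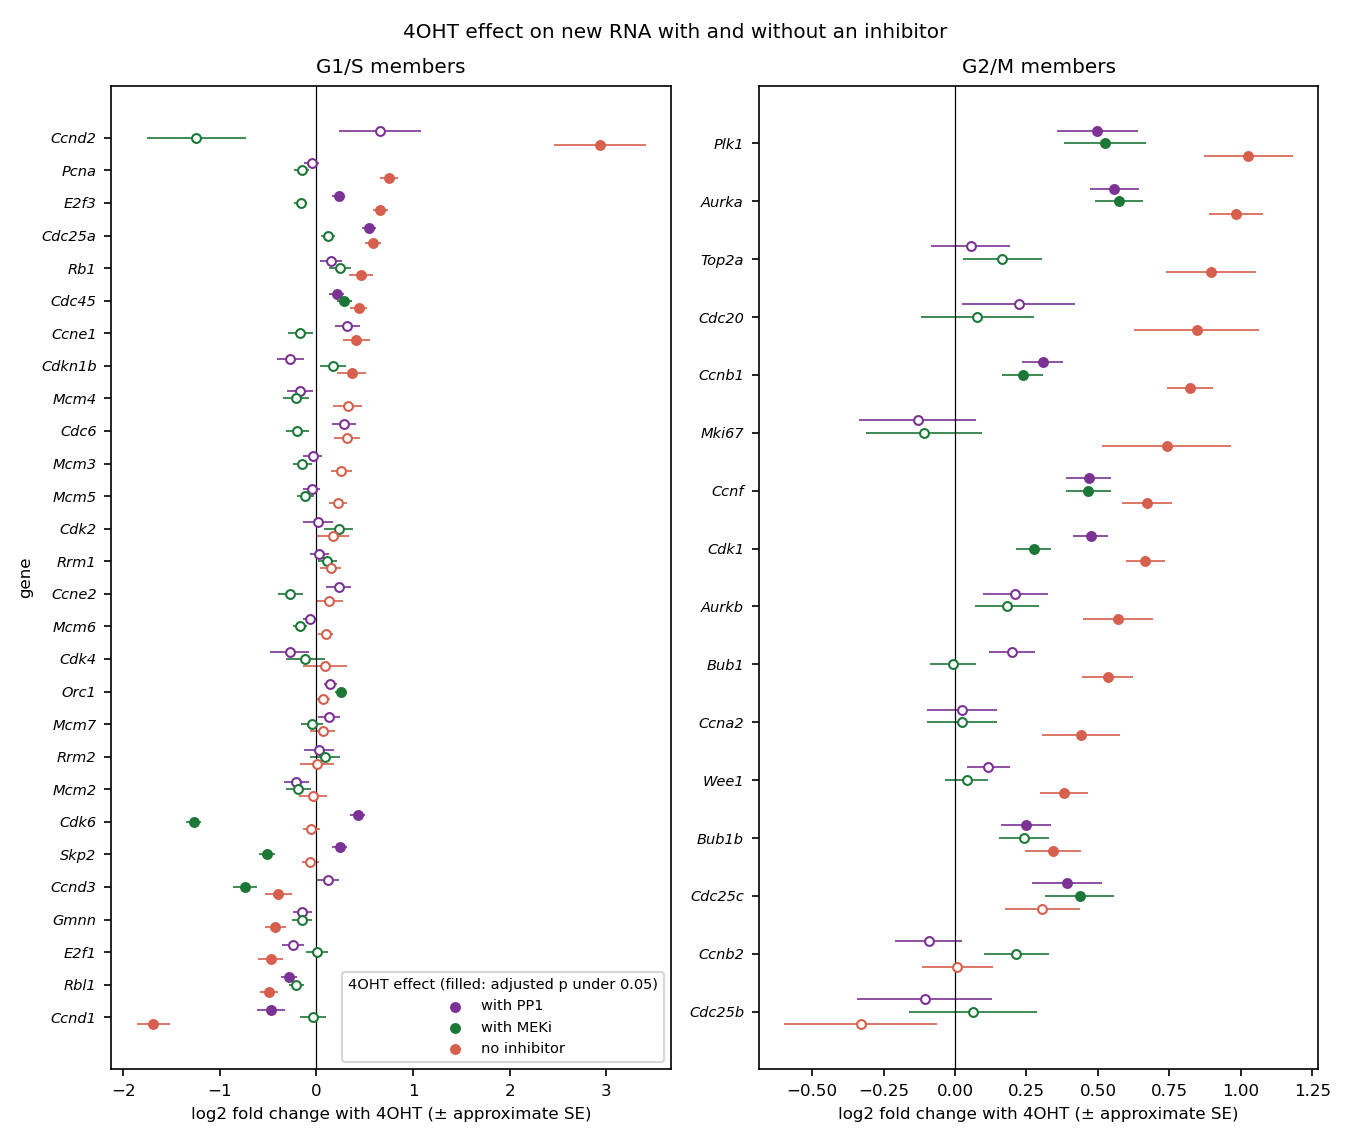
Log2 fold change with 4OHT (horizontal axis, bars are the approximate SE) for each tested G1/S member (left) and G2/M member (right), with PP1 (purple), with MEKi (green) and without inhibitor (red). Filled points have an adjusted p under 0.05. Among G2/M genes Top2a (0.06, 0.17 and 0.90) lies near 0 under both inhibitors. There PP1 clone a (476 CPM) and MEKi clone b (394 CPM) stood above the other clones of their groups. Ccnf (0.47, 0.47 and 0.67) keeps most of its rise, and Cdk6 splits between PP1 (0.43) and MEKi (-1.27).

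Whether an inhibitor changed the 4OHT effect was tested as the difference of the 4 groups involved. With MEKi the 4OHT effect differed from that without inhibitor for 14 G1/S genes (2 higher, 12 lower) and 8 G2/M genes (0 higher, 8 lower), while 40.4% of all genes were called (21.1% higher, 19.3% lower). The 4 members of smallest adjusted p were Cdk6 (-1.22 ± 0.12, adjusted p = 1.69e-08), E2f3 (-0.82 ± 0.10, adjusted p = 5.10e-07), Pcna (-0.90 ± 0.12, adjusted p = 2.11e-06) and Ccnd1 (1.65 ± 0.22, adjusted p = 3.16e-06). Ccnd2 had the largest difference, -4.17 ± 0.70 (adjusted p = 2.24e-04). E2f3 stood at 195, 190.04 and 202 CPM with MEKi and 4OHT, against 209, 215 and 232 CPM with MEKi, and Pcna at 119, 116 and 129.9 CPM against 133, 139.7 and 133 CPM. Both had risen with 4OHT alone, and under MEKi neither was called, at -0.16 ± 0.07 for E2f3 and -0.15 ± 0.08 for Pcna. Of the G2/M genes Ccnb1 (-0.59 ± 0.11, adjusted p = 1.14e-04), Bub1 (-0.54 ± 0.12, adjusted p = 8.33e-04) and Cdk1 (-0.39 ± 0.09, adjusted p = 0.00136) had the smallest adjusted p. Aurka, which rose in both settings, rose less under MEKi (-0.41 ± 0.13, adjusted p = 0.0118). Only Cdk6, Ccnd2 and Ccnd1 held in every library left out and under every other setting run. Library totals only, with an all-gene median of 0.479, gave 7 up and 2 down for G1/S and 3 up and 0 down for G2/M. Of all 14907 genes 4754 were then called higher and 742 lower. Without DMSO clone b the member counts were 2 up and 6 down and 0 up and 5 down.

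With PP1 the 4OHT effect differed for 7 G1/S genes (3 higher, 4 lower) and 4 G2/M genes (0 higher, 4 lower), with 26.5% of all genes called (15.1% higher, 11.4% lower). Pcna (-0.80 ± 0.12, adjusted p = 2.66e-05), Ccnd1 (1.22 ± 0.22, adjusted p = 3.26e-04), Ccnb1 (-0.52 ± 0.11, adjusted p = 8.97e-04) and E2f3 (-0.43 ± 0.10, adjusted p = 0.00233) led by adjusted p. Pcna stood at 127, 148 and 155 CPM with PP1 and 4OHT, against 144, 154 and 146 CPM with PP1, and Ccnb1 at 199, 218 and 217 CPM against 164, 171 and 177 CPM. The rise of Pcna was thus not seen under PP1, while that of Ccnb1 was smaller. Ccnd1 was the only one of the 11 that held in every library left out and under every other setting. Ccnd2 (-2.27 ± 0.64) lost its call without DMSO clone b (adjusted p = 0.0839) or clone c (0.0531), and Top2a (-0.84 ± 0.21) without DMSO clone b (0.059). Without DMSO clone b 6 members were called (1 up and 2 down for G1/S, 0 up and 3 down for G2/M), and without 4OHT clone a 20 (2 up and 8 down, 0 up and 10 down). With library totals only, at an all-gene median of 0.452, the split was 4 up and 1 down for G1/S and 0 for G2/M. Of all 14907 genes 3713 were then called higher and 444 lower.

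The 4OHT effects under the 2 inhibitors differed from each other for 5 G1/S genes, all higher under PP1, and for 0 G2/M genes, with 12.3% of all genes called (7.41% higher, 4.86% lower). These were Cdk6 (1.70 ± 0.11, adjusted p = 8.72e-11), Skp2 (0.75 ± 0.11, adjusted p = 4.95e-05), Ccnd3 (0.85 ± 0.18, adjusted p = 0.00214), E2f3 (0.39 ± 0.09, adjusted p = 0.0063) and Cdc25a (0.42 ± 0.11, adjusted p = 0.00858), and they held in every library left out. For the 0 G2/M genes 1 had an unadjusted p under 0.05 in edgeR, and DESeq2 and limma-voom also called 0. With clone as a block 10 members were called, 9 up and 1 down, all of them G1/S, the added ones being Ccnd2 (1.87, adjusted p = 0.00806), Cdc6 (0.50, 0.00395), Ccne1 (0.49, 0.023), Ccne2 (0.51, 0.0474) and Cdkn1b (-0.43, 0.0403). With library totals only, Cdk6 alone of the members was called, at 279 of all 14907 genes higher and 235 lower.

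The inhibitors were also compared among cells given 4OHT, with the same 4OHT libraries as above. With MEKi and 4OHT against 4OHT, 3 G1/S genes were higher and 16 lower, and 1 G2/M gene was higher and 11 lower, at 56.8% of all genes called (28.4% higher, 28.4% lower). Ccnd1 was at 49.96, 50.6 and 49.7 CPM with MEKi and 4OHT, against 9.53, 16.2 and 13.1 CPM with 4OHT (1.99 ± 0.16, adjusted p = 4.70e-10), and Ccnd2 differed by -3.61 ± 0.44 (adjusted p = 5.12e-06). E2f3 (-1.06 ± 0.07, adjusted p = 2.20e-12), Pcna (-0.93 ± 0.08, adjusted p = 7.39e-10) and Cdk6 (-1.24 ± 0.08, adjusted p = 4.04e-12) were lower. Mcm3, Mcm4, Mcm5 and Mcm6 were lower, with log2 fold changes of -0.49, -0.51, -0.39 and -0.30, all 4 of them losing their calls under library totals, where the direction of Mcm6 turned. That scaling, with an all-gene median of 0.403, turned the split to 10 up and 4 down for G1/S and 4 up and 1 down for G2/M. Of all 14907 genes 5872 were then called higher and 1465 lower. Totals outside the 14 loci gave 7 up and 6 down and 4 up and 4 down, at 6592 of 15003 genes higher and 2306 lower. Ccnd1, Ccnd2, Cdk6, E2f3 and Pcna held in every library left out and every setting.

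With PP1 and 4OHT against 4OHT, 5 G1/S genes were higher and 9 lower, and 0 G2/M genes were higher and 9 lower, at 41.8% of all genes called (21.4% higher, 20.5% lower). Ccnd1 (1.57 ± 0.16, adjusted p = 6.90e-08), Ccnd3 (0.58 ± 0.12, adjusted p = 6.68e-04), Gmnn (0.39 ± 0.10, adjusted p = 0.0031), Cdk6 (0.37 ± 0.08, adjusted p = 4.17e-04) and Skp2 (0.27 ± 0.08, adjusted p = 0.00763) were higher. Ccnd2 (-1.46 ± 0.37, adjusted p = 0.00509), Pcna (-0.69 ± 0.08, adjusted p = 2.33e-07), E2f3 (-0.63 ± 0.07, adjusted p = 4.25e-08) and Cdkn1b (-0.58 ± 0.14, adjusted p = 0.00134) were among those lower, and among G2/M genes Top2a (-0.55 ± 0.14, adjusted p = 0.00433) was the one that held under every setting. Library totals only, at an all-gene median of 0.233, gave 7 up and 2 down for G1/S and 1 up and 2 down for G2/M. Of all 14907 genes 3818 were then called higher and 969 lower. E2f3 (adjusted p = 0.0604) and Cdkn1b (0.112) lost their calls. Totals outside the 14 loci gave 9 up and 4 down, and 1 up and 5 down, at 4883 of 15003 genes higher and 1785 lower.

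PP1 with 4OHT against MEKi with 4OHT sets the inhibitors against each other, and 13 G1/S genes (10 higher, 3 lower) and 1 G2/M gene (higher) were called, at 28.2% of all genes (15.2% higher, 13.0% lower). Cdk6 was at 302, 282 and 274 CPM with PP1 and 4OHT, against 97.7, 91.8 and 91.5 CPM with MEKi and 4OHT (1.61 ± 0.08, adjusted p = 1.24e-13), or 3.05-fold higher. Skp2 was at 109, 107 and 113 CPM with PP1 and 4OHT, against 55.2, 52.3 and 56.4 CPM with MEKi and 4OHT (1.01 ± 0.08, adjusted p = 8.46e-10). Both stood apart by more than any spread between clones. Ccnd3 (0.93 ± 0.12, adjusted p = 6.44e-06), Ccnd2 (2.15 ± 0.47, adjusted p = 0.00289) and Ccne1 (0.56 ± 0.12, adjusted p = 0.00171) were higher too, and all 5 held in every library left out and every setting. Ccnd1 was lower (-0.42 ± 0.14, adjusted p = 0.0272), a call lost without any 1 of 5 libraries, with an adjusted p of 0.109 without PP1 with 4OHT clone a. Orc1 was lower (-0.26 ± 0.06, adjusted p = 0.00353). Bub1, the 1 G2/M gene (0.24 ± 0.08), lost its call without any 1 of 5 libraries, with adjusted p up to 0.116. Without MEKi with 4OHT clone b 9 members were called, 7 up and 2 down, all G1/S. With library totals only, which moved the all-gene median to -0.143, 5 G1/S genes were higher and 2 lower, and 0 G2/M genes were higher and 1 lower. Of all 14907 genes 661 were then called higher and 1492 lower.

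No member was called for an inhibitor alone. In MEKi against DMSO 0 of 44 were called with edgeR, DESeq2 or limma-voom, against 0.530% of all genes (0.0805% higher, 0.449% lower), while 4 had an unadjusted p under 0.05 in edgeR and 3 in each other tool. In PP1 against DMSO it was 0 of 44 with each tool, against 0.241% of all genes (0.0805% higher, 0.161% lower), with 3 (edgeR), 4 (DESeq2) and 3 (limma-voom) at an unadjusted p under 0.05. In PP1 against MEKi it was again 0, against 0.0738% (0.0738% higher, 0.00% lower), with 2 unadjusted in each tool. The smallest adjusted p in edgeR were 0.301 for E2f3 with PP1 and 0.165 for Skp2 with MEKi, where E2f3 came next at 0.17. E2f3 stood at 205, 237 and 229 CPM with PP1, 209, 215 and 232 CPM with MEKi and 260.2 and 255 CPM with DMSO. Both inhibitor groups lay below both DMSO libraries for this gene, with log2 fold changes of -0.20 ± 0.07 and -0.24 ± 0.07. Ccnd1 lay above DMSO with both, by 0.35 ± 0.16 with PP1 and 0.34 ± 0.15 with MEKi, at an adjusted p of 0.422 and 0.415. With 2 DMSO libraries, a missed threshold does not show that these levels were alike.

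Other genes of the same processes, from lists that hold no member, gave the following with 4OHT. These lists were also chosen with earlier results of these data known. Of 48 further G2/M and mitosis genes tested, 23 rose and 0 fell with 4OHT under PP1, 15 rose and 1 fell under MEKi, and 36 rose and 2 fell without inhibitor. Of all genes 18.4% rose and 12.8% fell under PP1, 7.65% and 7.03% under MEKi, and 25.7% and 26.3% without inhibitor. Their median log2 fold changes were 0.20, 0.18 and 0.48, against 0.00112, 0.0044 and -0.02 over all genes. Foxm1, the factor that drives many mitotic promoters, stood at 58.6, 63.3 and 64.2 CPM with 4OHT, against 34.6 and 28.2 CPM with DMSO (0.98 ± 0.13, adjusted p = 1.44e-06). Tpx2, which activates Aurora A on the spindle (0.93 ± 0.07, adjusted p = 2.36e-10), Cks2, a CDK1 subunit (0.92 ± 0.10, adjusted p = 6.83e-08), and Anln (anillin), which acts in cytokinesis (0.87 ± 0.07, adjusted p = 8.47e-10), rose as well. Birc5 (survivin) rose under both inhibitors, by 0.51 ± 0.08 (adjusted p = 3.49e-05) under PP1 and 0.50 ± 0.08 (adjusted p = 6.56e-05) under MEKi.

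Of 52 further replication and G1/S genes, 15 rose and 2 fell under PP1, 4 rose and 2 fell under MEKi, and 20 rose and 11 fell without inhibitor, with medians of 0.14, -0.04 and 0.05. Read against the 31.3%, 14.7% and 52.0% of all genes called, the counts of both directions together lie near the background in each setting. Under PP1 most of those called rose, where 18.4% of all genes rose and 12.8% fell. Without inhibitor, large changes were those of Orc5, an origin recognition subunit (-0.88 ± 0.08, adjusted p = 1.73e-09), E2f4, a repressive E2F (0.73 ± 0.14, adjusted p = 1.17e-04), and Orc4 (0.71 ± 0.09, adjusted p = 3.14e-07). Orc5 and Orc4 thus moved opposite ways. Under PP1 the largest was E2f2, an activating E2F (0.96 ± 0.14, adjusted p = 2.27e-05), and under MEKi Gins3, a part of the GINS complex of the helicase (0.45 ± 0.14, adjusted p = 0.0319).

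Of 14 CDK inhibitor and quiescence genes, 4 rose and 0 fell under PP1, 5 rose and 1 fell under MEKi, and 5 rose and 0 fell without inhibitor, with medians of 0.08, 0.29 and 0.37. Against the same 31.3%, 14.7% and 52.0% of all genes called, the count under PP1 lies near the background, that under MEKi above it and that without inhibitor below it. All those called under PP1 and without inhibitor rose, where 18.4% and 25.7% of all genes rose. Under MEKi 7.65% of all genes rose and 7.03% fell. Cdkn1a, which encodes the CDK inhibitor p21, stood at 87.8 ± 14.7 CPM with 4OHT and 38.9 ± 8.12 CPM with DMSO (SD, n = 3 and 2), and rose by 0.63 ± 0.15 (adjusted p = 0.00291) under PP1, 0.95 ± 0.14 (adjusted p = 1.06e-04) under MEKi and 1.17 ± 0.16 (adjusted p = 3.20e-06) without inhibitor. Tob2, an antiproliferative BTG family gene, rose likewise, by 0.92 ± 0.15, 0.70 ± 0.15 and 1.23 ± 0.15 in the same order, and so did Mdm2, the ligase that limits p53, by 0.60 ± 0.07 under PP1 and 0.86 ± 0.07 without inhibitor. Trp53, which encodes p53, was the 1 gene that fell, under MEKi (-0.47 ± 0.11, adjusted p = 0.00455). Myc, which encodes a transcription factor that promotes cell growth and cycling and is a known ERK target, stood at 40.05, 47 and 50.6 CPM with PP1 and 4OHT and 19.7, 14 and 14.5 CPM with PP1, at 1.52, 1.1 and 1.27 CPM with MEKi and 4OHT and 10.1, 8.18 and 6.02 CPM with MEKi, and at 65.2, 71.7 and 54.4 CPM with 4OHT and 20.1 and 26 CPM with DMSO. It rose with 4OHT under PP1 (1.56 ± 0.16, adjusted p = 2.12e-07) and without inhibitor (1.47 ± 0.17, adjusted p = 9.98e-08), and fell under MEKi (-2.60 ± 0.27, adjusted p = 4.86e-07), the same pattern of signs as Dusp6.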

How the data were processed

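New RNA captured after ethynyl uridine labelling was sequenced in 17 libraries (6 groups). The deposited table holds raw counts per gene symbol, not normalized by the authors, and the submitters' processing notes name mm10, STAR and featureCounts. Tool versions, annotation and strand setting are not given in these sources, so members that overlap another gene are uncertain. Coordinates come from GENCODE mouse release 21, matched by symbol for 25595 of 25899 rows. Library depth ran from 5239690 to 11093390 counts. The p-values cover only the spread between libraries of different clones, in which clone and library differences are mixed.

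From these counts, edgeR 4.0.16 (R 4.3.3) was run with TMM, filterByExpr by group (14907 genes kept), 1 robust quasi-likelihood fit with 1 term per group and no covariate (11 residual degrees of freedom, common biological coefficient of variation 0.0977). There were 12 comparisons, 9 of 2 groups and 3 of the difference between 4OHT effects, each with Benjamini-Hochberg adjustment over all genes kept. The approximate SE is the absolute log2 fold change over the square root of F. Levels are TMM-scaled CPM. The fit was tested on simulated counts.

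The 3 clones recur in every group (a not in DMSO), so a fit with clone as a block was an alternative. Deviations of libraries of the same clone from their group means correlated at 0.086 on average (40 pairs, -0.15 to 0.36), against -0.043 for 80 pairs of different clones. The other alternatives were DESeq2's size factors, library totals with or without 14 high-count loci, TMM without them, 2 other filters on low counts, the compared groups only, leaving out the 2 libraries of highest background (read from the lowest CPM per Mb among 1466 genes of 150 kb or more), limma-voom (limma 3.58.1), DESeq2 1.42.0 and each library left out. All 46 members are accounted for. Values in every library are given for the D cyclins, Cdkn1b, the largest called changes with 4OHT (8 G1/S, 4 G2/M) and the leading interactions, and for some other members chosen after their values were seen. Up to 4 called genes of a list were named per comparison, and some values are not reported here. The members and lists were chosen with earlier results of these data known. Promoter sequences are RefSeq's (36 members of 46 matched, 40 windows). In 34 of the 40 windows the bases after the start were found in a GENCODE transcript of the gene. In the rest they were not.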

Additional observations from a re-analysis of the deposited data

Results flagged for a closer look

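The results below have an effect of 4OHT that differed between inhibitor settings by a test of the difference itself (edgeR, adjusted p under 0.05), so each is a difference between 2 log2 fold changes. With MEKi against no inhibitor it was positive for Ccnd1 (1.65) and E2f1 (0.48). Among G1/S genes it was negative for Ccnd2 (-4.17), Cdk6 (-1.22), Pcna (-0.90), E2f3 (-0.82), Ccne1 (-0.58), Mcm4 (-0.54), Cdc6 (-0.51), Cdc25a (-0.47), Skp2 (-0.45), Mcm3 (-0.40), Mcm5 (-0.34) and Mcm6 (-0.27). Among G2/M genes it was negative for Mki67 (-0.85), Cdc20 (-0.77), Top2a (-0.73), Ccnb1 (-0.59), Bub1 (-0.54), Aurka (-0.41), Cdk1 (-0.39) and Wee1 (-0.34).

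With PP1 against no inhibitor the difference was positive for Ccnd1 (1.22), Ccnd3 (0.51) and Cdk6 (0.48). It was negative for Ccnd2 (-2.27), Pcna (-0.80), Cdkn1b (-0.63) and E2f3 (-0.43) among G1/S genes and for Top2a (-0.84), Ccnb1 (-0.52), Aurka (-0.43) and Bub1 (-0.34) among G2/M genes. With PP1 against MEKi it was positive for Cdk6 (1.70), Ccnd3 (0.85), Skp2 (0.75), Cdc25a (0.42) and E2f3 (0.39).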

How the results depend on the processing

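With library totals only, 15 members were called in 4OHT against DMSO, 6 in MEKi with 4OHT against MEKi, 10 in PP1 with 4OHT against PP1, 19 and 12 with MEKi and with PP1 against 4OHT alone, 8 in PP1 with 4OHT against MEKi with 4OHT, and 12, 5 and 1 in the differences with MEKi, with PP1 and between the inhibitors. Totals without the 14 loci left 11 in the difference with MEKi. Without the 2 libraries of highest background the counts were 7 in MEKi with 4OHT against MEKi and 9 in PP1 with 4OHT against MEKi with 4OHT. With clone as a block, the difference between inhibitors had 10 calls, Cdc20 (adjusted p = 0.051) and Mki67 (0.058) lost theirs in the difference with MEKi, and no other call was lost. Calls gained under it included Bub1b with MEKi (0.0319) and Cdc6 with PP1 (0.00673).

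Leaving out each library gave 21 to 29 calls in 4OHT against DMSO, 7 to 11 with MEKi (7 without MEKi clone a) and 7 to 15 with PP1 (7 without PP1 with 4OHT clone a). It gave 26 to 30 with MEKi and 19 to 26 with PP1 against 4OHT alone, and 9 to 12 between the inhibitors under 4OHT (9 without MEKi with 4OHT clone b). The differences had 13 to 25 with MEKi (13 without DMSO clone b), 6 to 20 with PP1 (6 without DMSO clone b, 20 without 4OHT clone a) and 5 to 7 between the inhibitors. The inhibitors alone gave 0 each time.

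Some log2 values that were negative turned positive under library totals only. In MEKi with 4OHT against 4OHT they were Mcm6 (0.0557), Aurkb (0.0323), Rb1 (0.0487), Cdc45 (0.10), Ccnd3 (0.00365) and Ccna2 (0.0735), and with totals without the loci Mcm6 (0.00112), Rb1 (0.0070), Cdc45 (0.0569) and Ccna2 (0.0128). Mcm6 was at 0.0498 and 8.97e-05 under these scalings in PP1 with 4OHT against 4OHT. In the difference with MEKi they were Mcm3 (0.0841), Mcm6 (0.21), Cdk1 (0.0792), Skp2 (0.0147), Aurka (0.0725), Wee1 (0.12), Mcm5 (0.15) and Cdc25a (0.00232), and Mcm6 (0.0167) without the loci, and in that with PP1 Bub1 (0.11) and Aurka (0.0164). The cause was not tested. Of the 26 calls in 4OHT against DMSO 18 were kept with every library left out and 12 under all other settings, of 22 in the difference with MEKi 12 and 3. Depth limits Ccnd2 most, at 1292 counts over all libraries.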
